A study of Mus musculus with 6 samples.

Results

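The 10 genes described here encode the core of the NF-κB system, and they were chosen by name from the 17831 genes of the count table. They are the 5 DNA-binding subunits (Rela, Rel, Relb, Nfkb1 and Nfkb2), 3 inhibitors of the IκB family (Nfkbia, Nfkbib and Nfkbie) and the 2 catalytic IκB kinases (Chuk and Ikbkb). All 10 passed the filter on low counts. Their transcripts were measured by bulk RNAseq in group 2 innate lymphoid cells (ILC2s) sorted from mouse lung. ILC2s are tissue-resident lymphocytes that lack antigen receptors and secrete type 2 cytokines. The 3 WT libraries carry the genotype label CB57BL/6, and the 3 SIRPα KO libraries carry SIRPalphatm1Ynliu/J, a germline allele of the receptor SIRPα. Mice of both groups were 6 to 8 weeks old and were given rmIL-33 into the nose (0.5 μg on each of 3 days) before ILC2s were sorted on day 4. The cells of both groups were then cultured with rmIL-2 and rmIL-7 at 10 ng/mL, for 18 h according to the results text and 24 h according to the legend. Each library was made from 10 pg of RNA. How many mice stand behind a library is not given in the sources used here. The comparison asks whether ILC2s without SIRPα carried different amounts of these transcripts.

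NF-κB factors are dimers that IκB proteins hold in the cytoplasm. In the canonical arm, IκB kinases phosphorylate IκB, the ubiquitin system removes it, and dimers such as RelA with p50 enter the nucleus. In the alternative arm, the kinase NIK acts through IKKα, p100 is processed to p52, and RelB dimers are released. In ILC2s, the IL-33 receptor ST2 signals through MyD88 to this system. Several of the 10 genes are themselves known targets of NF-κB, Nfkbia above all, which closes a negative feedback loop. Most control is by phosphorylation and by movement between cytoplasm and nucleus, neither of which a transcript level shows.

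Because several of the 10 genes are known to be under NF-κB control, promoters of the 10 were searched for κB sites. RefSeq promoter windows on GRCm38.p6, from 250 bases before a start to 50 after it, were matched for 7 of the 10 genes. Those of Relb, Nfkb1 and Ikbkb were not used here. The κB consensus was searched on both strands, together with a motif of GGG, any 3 bases and TTCC, which overlaps it. The stretches around the matches nearest to the first listed start of 4 genes are shown because these are the members whose windows held the consensus. They run 5′ to 3′ on the strand of the gene, with the matching bases in capitals, overlapping matches merged.
Rel, chr11:23771017-23771096, minus strand, 127 to 48 bases upstream: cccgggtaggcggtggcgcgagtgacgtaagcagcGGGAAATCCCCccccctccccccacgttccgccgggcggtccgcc
Nfkb2, chr19:46304657-46304736, plus strand, 80 to 1 bases upstream: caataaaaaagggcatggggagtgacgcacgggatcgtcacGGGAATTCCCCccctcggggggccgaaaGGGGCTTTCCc
Nfkbia, chr12:55492648-55492727, minus strand, 80 to 1 bases upstream: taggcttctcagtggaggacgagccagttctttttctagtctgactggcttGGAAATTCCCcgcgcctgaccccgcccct
Nfkbie, chr17:45555558-45555637, plus strand, 142 to 63 bases upstream: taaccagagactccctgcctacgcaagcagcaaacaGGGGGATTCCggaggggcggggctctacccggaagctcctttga
The 7 matched members have 9 windows, 3 of them of Nfkb2, which overlap in part. The consensus was in 6 of these 9 windows, belonging to 4 members, and in 8.46% of all 32851 promoter windows of this length. The motif ending in TTCC was found in 7 of the 9 windows, those of the same 4 members and that of Chuk, as GGGTGATTCC, and in 5.56% of all windows. Neither pattern was in the windows of Rela and Nfkbib. A match is a description of the letters and not evidence of binding.

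The libraries held 13980499 to 19051507 reads on genes. Variation between replicates was 28.5% as edgeR's biological coefficient of variation, and 21% without WT replicate 3, a library that stood apart from the other 5 on the first principal component. By their label codes, WT replicates 1 and 2 (37, 37V1) and SIRPα KO replicates 2 and 3 (44, 44V1) could be paired libraries of 1 sample each, which would leave 2 samples a group. Nothing in the sources says that replicates are separate animals or cultures, and the p values measure only the spread between these libraries, which may be technical. Sirpa had few reads in every library, with 6.74 ± 1.87 CPM (read counts scaled to library size, SD, n = 3) in WT and 3.09 ± 1.36 CPM in SIRPα KO, and an adjusted p of 0.115 from edgeR. Which exons the allele removes is not given in the sources used here, so its reads check the labels only in part. Summed over 12 ILC2 markers, the level was 13500 to 14600 CPM in WT and 17800 to 18400 CPM in SIRPα KO. Most of that sum was Il5, and the markers did not move as one. Il5 and Ptprc were called higher and Id2 lower. Ptprc encodes CD45, by which leukocytes in general are gated, and so does not tell ILC2s from other lymphocytes. Without passing the test, Il1rl1, Il7r and Il13 lay above all WT libraries, and Arg1, Klrg1 and Icos lay below them. Summed markers of B, NK and T cells were low, and lower in SIRPα KO. The summed level of 6 B cell markers was 216 to 479 CPM in WT, most of it Ighm and Igkc, and 23.1 to 84.6 CPM in SIRPα KO. The same sum was 13.9 to 25.3 against 1.73 to 3.73 CPM for 5 NK cell markers, and 18.6 to 23.5 against 4.77 to 5.56 CPM for the 6 of 7 T cell markers in the table. Of these, 5 B cell markers, 3 NK cell markers and 1 T cell marker (Cd3g) passed the test, all lower in SIRPα KO. The fall of the T cell sum was that of Cd3g, since the libraries overlapped for the other 5. The sum of 10 of 11 macrophage and granulocyte markers had overlapping ranges, at 42.6 to 139 and 77.9 to 122 CPM, as did that of 4 mast cell and basophil markers, at 7.07 to 20.8 and 0.868 to 10.4 CPM. The sum of 4 of 6 epithelial and stromal markers was 60.6 to 85.9 and 46.8 to 107 CPM, with Epcam called lower and Pecam1 higher. Cd4 was at 0 in 5 of 6 libraries.

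Of the 10 genes, 2 differed between the genotypes: Rel was higher and Nfkb1 was lower in SIRPα KO. Chuk and Nfkbia were also higher in every SIRPα KO library than in every WT library, but did not pass the test. The 2 called genes are 20% of the 10, against 11.7% of all 13623 genes tested (5.94% higher and 5.81% lower). At an unadjusted p under 0.05 there were 3 of the 10, against 32.0% of all genes. With DESeq2, which also called Chuk, it was 3 of 10 against 26.9% of all genes. For 4 of the 10 genes no library of one group reached the range of the other, 3 higher and 1 lower, and this held for 42.8% of all genes (21.6% higher and 21.2% lower). The share among the 10 was thus near the background. The log2 fold change was above 0 for 6 of the 10, or 4 of the 10 with upper quartile scaling, and for 48.4% of all genes. The median log2 fold change of the 10 was 0.049, and that of all genes tested was -0.025, or -0.13 with upper quartile scaling. Fewer cells carrying a transcript and less transcript per cell cannot be told apart in these data.

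**Figure D1:**
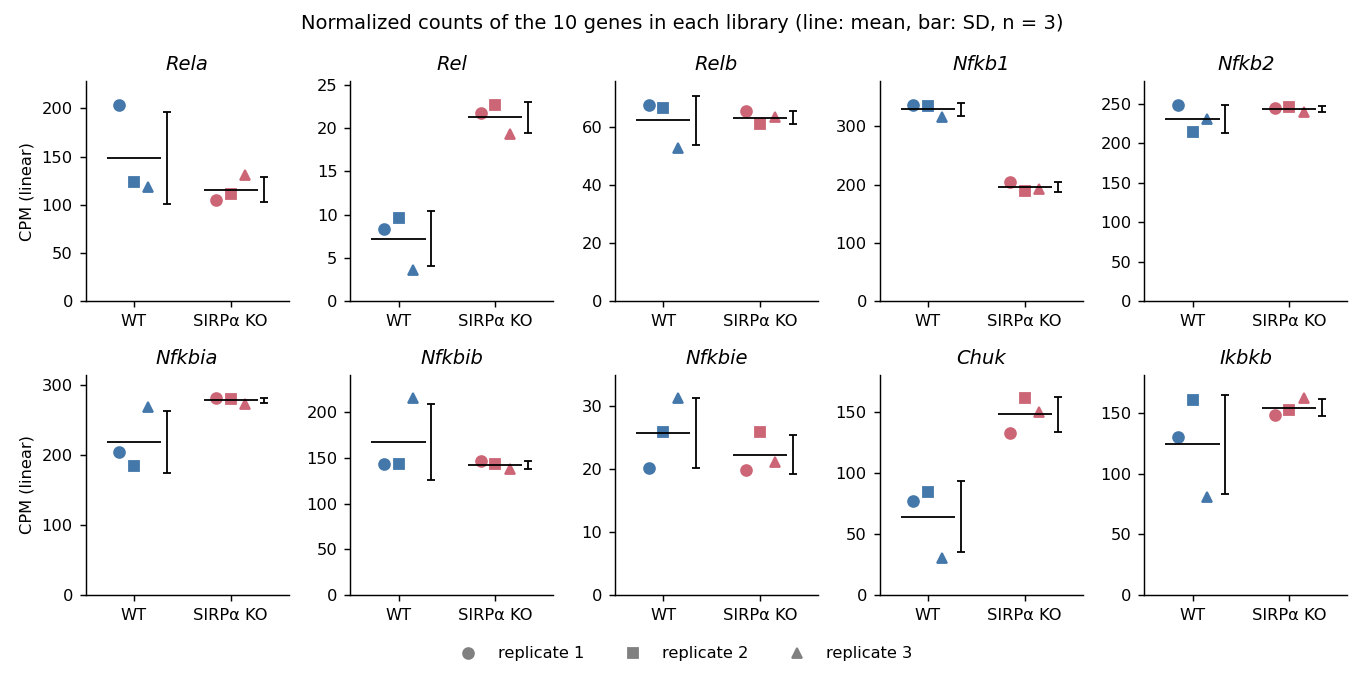
Normalized level in CPM (linear axis from 0, a panel per gene) of each of the 10 genes in the 3 WT and 3 SIRPα KO libraries, 1 point per library, with a line at the group mean and a bar for the SD (n = 3). The Rel, Chuk and Nfkbia points of SIRPα KO lie above all WT points and those of Nfkb1 lie below, while the groups overlap for the other 6 genes.

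Among the subunits, Rel encodes c-Rel, the activating subunit best known for lymphocyte activation (mm10, chr11:23736847-23770970). Rel was at 8.34, 9.67 and 3.64 CPM in WT replicates 1, 2 and 3 and at 21.8, 22.7 and 19.3 CPM in the SIRPα KO replicates. The groups did not overlap, and the lowest library was WT replicate 3. The means were 7.22 ± 3.17 and 21.3 ± 1.78 CPM (SD, n = 3). Rel rose 2.95-fold, or by 1.56 on the log2 scale (standard error 0.35), and edgeR's quasi-likelihood test gave an adjusted p of 0.0312. Its log2 fold change was above that of 97.9% of the genes tested. These values rest on 55 to 145 reads in WT and 311 to 433 in SIRPα KO. The adjusted p of Rel from edgeR was 0.0538 without WT replicate 1, 0.134, 0.136 and 0.107 without SIRPα KO replicate 1, 2 or 3, and 0.139 when libraries of one code were summed.

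Nfkb1 encodes p105, an IκB-like precursor that is processed to the DNA-binding subunit p50 (chr3:135584655-135691547). The level of Nfkb1 was 337, 335 and 316 CPM in WT replicates 1, 2 and 3. In SIRPα KO it was at 205, 190 and 194 CPM. Both groups were tight and lay far apart, with means of 330 ± 11.4 and 196 ± 8.13 CPM (SD, n = 3). Nfkb1 fell by 0.75 on the log2 scale (standard error 0.097, adjusted p = 0.0101 from edgeR), to 0.595 of the WT level. Only 0.580% of the genes tested had a smaller p. The adjusted p of Nfkb1 from edgeR was 0.0847, 0.0981 and 0.0775 without SIRPα KO replicate 1, 2 or 3, and 0.130 when libraries of one code were summed. B cell and NK cell markers and the T cell marker Cd3g were lower in SIRPα KO too. The part of such cells in the values of Rel and Nfkb1 was not tested.

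The other 3 subunits did not pass the test. Rela, which encodes the main transactivating subunit RelA (p65), was at 204, 123 and 118 CPM in WT and 105, 112 and 130 CPM in SIRPα KO. Its groups overlapped, and WT replicate 1 was far above the other 5 libraries. The log2 fold change was -0.36 (95% interval -0.87 to 0.15, adjusted p = 0.292 from edgeR), and -0.058 without WT replicate 1. Nfkb2, whose product p100 is both an inhibitor and the precursor of p52, was at 249, 214 and 230 CPM in WT and 245, 246 and 239 CPM in SIRPα KO. The groups overlapped, with a log2 fold change of 0.077 (95% interval -0.16 to 0.31, adjusted p = 0.638 from edgeR). Nfkb2 shares 299 exon bases (6.52%) with Psd on the opposite strand and 531 (11.6%) with AC114539.1. Relb, the partner of p52, was at 67.7, 66.6 and 52.6 CPM in WT and 65.4, 61.1 and 63.3 CPM in SIRPα KO, with overlapping groups and a log2 fold change of 0.022 (95% interval -0.31 to 0.36, adjusted p = 0.932 from edgeR). For Nfkb2 and Relb these intervals do not exclude a rise of 0.31 and 0.36 on the log2 scale, and their sign turned with upper quartile scaling (-0.025 and -0.073). Among the 10, Nfkb2 and Relb were the nearest pair over the 6 libraries. The root mean square distance between their centred log2 values was 0.135, and such a distance is small for any 2 genes that vary little.

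Of the 3 inhibitors, 0 passed the test in edgeR, 0 had an unadjusted p under 0.05, and DESeq2 called 0. Nfkbia encodes IκBα, the inhibitor that is degraded and made anew after each round of activation. Nfkbia was at 205, 184 and 269 CPM in WT and 281, 280 and 273 CPM in SIRPα KO. The SIRPα KO libraries were close to each other and lay above all WT libraries, though WT replicate 3 was close to them. On the log2 scale the difference was 0.34 (95% interval -0.00075 to 0.69), and edgeR gave an adjusted p of 0.157. Without WT replicate 3 it was 0.52, with an adjusted p of 0.00606 from edgeR, and without WT replicate 2 it was 0.23. Nfkbib (IκBβ), an inhibitor with slower turnover, was at 143, 143 and 215 CPM in WT and 147, 143 and 137 CPM in SIRPα KO. Nfkbie (IκBε) was at 20.1, 25.9 and 31.3 CPM in WT and 19.9, 25.9 and 21.2 CPM in SIRPα KO. WT replicate 3 was the highest library for both, and the groups overlapped. Their log2 fold changes were -0.23 (95% interval -0.63 to 0.17) and -0.21 (95% interval -0.70 to 0.29). Nfkbib shares 42 exon bases (1.94%) with Sirt2 and 314 (14.5%) with Ccer2 on the opposite strand, and whether the counting used strand is not stated.

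Chuk encodes IKKα, the kinase of the alternative arm, and Ikbkb encodes IKKβ, the main IκBα kinase of the canonical arm. Chuk was at 77.3, 84.3 and 30.8 CPM in WT and 133, 161 and 150 CPM in SIRPα KO. The groups did not overlap, and WT replicate 3 was the lowest library, as it was for Rel. The ratio of the group levels was 2.31, which is 1.21 on the log2 scale (95% interval 0.44 to 1.98). Its adjusted p from edgeR was 0.0542, just outside the threshold, and from DESeq2 it was 0.00293. Without WT replicate 3 the log2 fold change was 0.88, with an adjusted p of 0.00473 from edgeR. Ikbkb was at 131, 161 and 80.6 CPM in WT and 149, 152 and 162 CPM in SIRPα KO. The groups overlapped, and WT replicate 3 was again the lowest library. Ikbkb had a log2 fold change of 0.31 (95% interval -0.21 to 0.84, adjusted p = 0.373 from edgeR), and 0.090 without WT replicate 3.

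**Figure D2:**
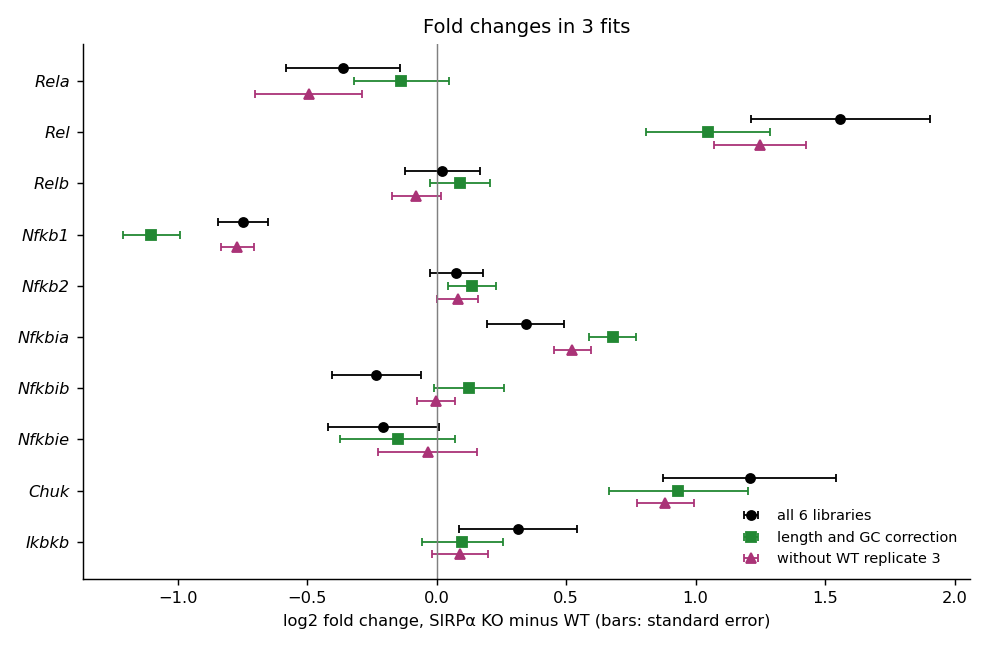
Log2 fold change of SIRPα KO against WT for the 10 genes from edgeR, with bars for the standard error, together with the values corrected for length and GC content and those without WT replicate 3. Rel, Chuk and Nfkbia lie to the right of 0 and Nfkb1 to the left under all 3 settings. In the corrected values, the other 6 genes lie nearer to 0 than any of these genes.

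WT replicate 3 was the lowest of the 6 libraries for Rel, Chuk, Ikbkb and Relb and the highest for Nfkbib and Nfkbie. Across genes, fold changes also followed transcript length. When genes were binned by transcript length, the median log2 fold change ran from -0.55 in the bin of the shortest to 0.47 in that of the longest. Rel has the longest transcript of the 10 genes, with 7466 bases, and Nfkbia the shortest, with 1578. From length and GC content alone, a correction fitted on 9024 genes gave a predicted log2 difference of 0.58 for Rel, 0.35 for Nfkb1, 0.32 for Chuk and -0.32 for Nfkbia. With the correction, the log2 fold change of Rel was 1.05 (adjusted p = 0.0370 from edgeR), and that of Nfkb1 was -1.10 (adjusted p = 0.00346 from edgeR). Nfkbia moved from 0.34 to 0.68 and passed the threshold (adjusted p = 0.00878 from edgeR). Chuk moved from 1.21 to 0.93 (adjusted p = 0.0691 from edgeR). Ikbkb was at 0.099, Rela at -0.14, and Nfkbib turned from -0.23 to 0.13. With the correction, 3 of the 10 genes were called against 8.88% of all genes.

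To compare levels between genes, CPM were divided by the length of the longest annotated transcript in kilobases. On this scale Nfkbia was the most abundant of the 10 in both groups, at 139 ± 28.0 CPM per kilobase in WT and 176 ± 2.60 in SIRPα KO (SD, n = 3). Rel was the least abundant, at 0.967 ± 0.424 in WT and 2.85 ± 0.238 in SIRPα KO. The WT order ran from Nfkbia through Nfkbib, Nfkb1, Nfkb2, Rela, Ikbkb, Relb, Chuk and Nfkbie to Rel. In that order, the libraries of neighbours overlapped for Nfkbib and Nfkb1, for Nfkb2 and Rela, and for each step from Ikbkb to Nfkbie. In SIRPα KO the order was Nfkbia, Nfkbib, Nfkb2, Nfkb1, Rela, Chuk, Ikbkb, Relb, Nfkbie and Rel, with overlaps only from Nfkb1 to Rela and from Rela to Chuk. Nfkb1 was at 79.4 ± 2.74 CPM per kilobase in WT and 47.3 ± 1.96 in SIRPα KO, and so stood below Nfkb2 (60.0 ± 4.54 and 63.3 ± 1.04) in SIRPα KO only. Chuk (18.3 ± 8.31 and 42.3 ± 4.09) stood below Ikbkb (25.6 ± 8.39 and 31.9 ± 1.43) in WT and above it in SIRPα KO. Some places depend on the transcript taken. Nfkb1 stood above Nfkb2 in WT and below it in SIRPα KO with the median transcript length as well (119 against 79.3 and 71.0 against 83.7). With the median transcript length, Rela moved from place 5 to 2 in WT and from 5 to 3 in SIRPα KO, and Chuk from 8 to 5 and from 6 to 2. Chuk then stood above Ikbkb in both groups, at 80.6 against 41.7 CPM per kilobase in WT and 186 against 51.8 in SIRPα KO.

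**Figure D3:**
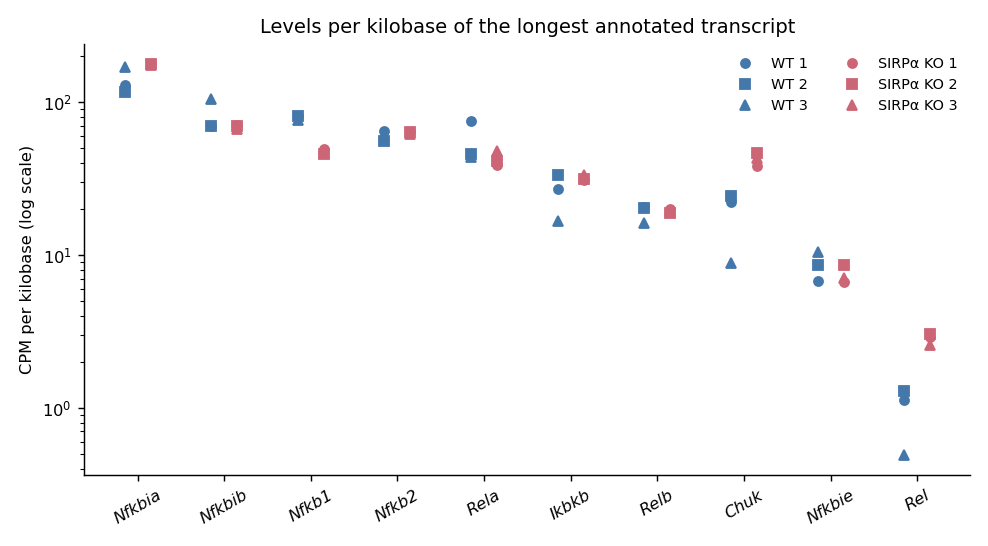
Level of the 10 genes in CPM per kilobase of the longest transcript (log axis), 1 point per library, for WT and SIRPα KO. Nfkbia is at the top and Rel at the bottom in both groups. Nfkb1 lies above Nfkb2 in WT and below it in SIRPα KO, as it does with the median transcript length.

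As a share of the summed subunit level per kilobase of the longest transcript, Nfkb1 made up 33.5%, 39.7% and 38.9% in the WT libraries and 28.3%, 26.5% and 26.1% in the SIRPα KO libraries. The share of Nfkb2 was 26.6%, 27.3% and 30.5% in WT and 36.5%, 37.1% and 34.7% in SIRPα KO. The groups did not overlap for either share, and with this length Nfkb1 stood above Nfkb2 in 3 of 3 WT libraries and below it in 3 of 3 SIRPα KO libraries. Rel made up 0.449% ± 0.194 in WT and 1.63% ± 0.164 in SIRPα KO, Relb 8.91% ± 0.965 and 11% ± 0.355, and Rela 25.2% ± 4.99 and 24.3% ± 2.41 (SD, n = 3). A share falls or rises with the other 4 genes too. The shares and ratios were not tested, since the smallest p that the exact permutation test allows for 3 against 3 libraries is 0.1. The place of Rela depends on the transcript taken. With the median transcript length, Rela had the largest share in every library, at 40.8% to 52% in WT and 41.1% to 47.5% in SIRPα KO. Nfkb1 then had 29.1% ± 3.98 and 21.3% ± 1.44, and Nfkb2 19.3% ± 2.17 and 25.1% ± 1.42 (SD, n = 3). With that length too, Nfkb1 stood above Nfkb2 in every WT library and below it in every SIRPα KO library. The level of the 3 inhibitors over that of the 5 subunits was 0.849, 0.956 and 1.45 in WT and 1.46, 1.48 and 1.38 in SIRPα KO. WT replicate 3 lay within the SIRPα KO range for this ratio. Nfkbia over Rela was 1.73, 2.56 and 3.92 in WT and 4.61, 4.32 and 3.61 in SIRPα KO, and the groups overlapped. Chuk over Ikbkb was 0.819, 0.724 and 0.528 in WT and 1.24, 1.47 and 1.28 in SIRPα KO, with no overlap. With the median transcript length this ratio was 1.43 to 2.22 in WT and 3.35 to 3.96 in SIRPα KO, so that Chuk was above Ikbkb in all 6 libraries.

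**Figure D4:**
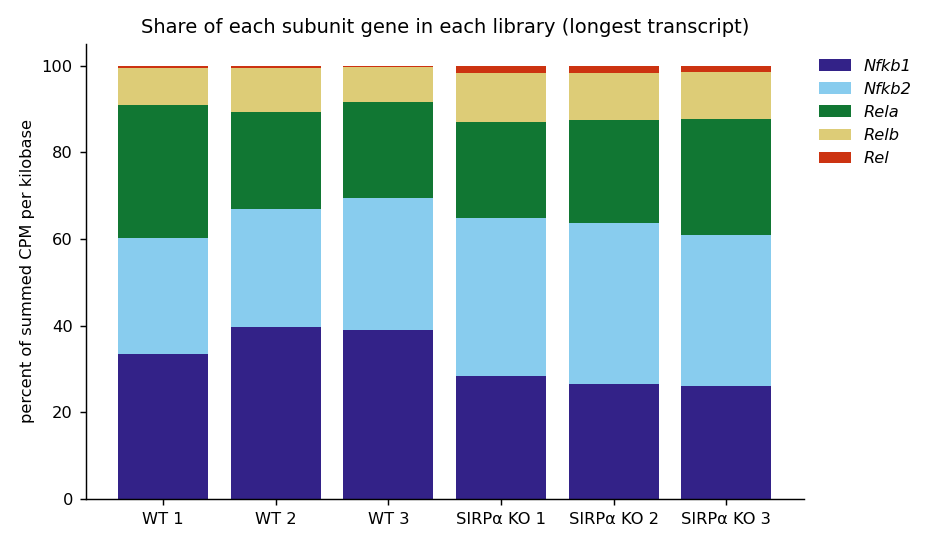
Share of each subunit gene in the summed level of the 5 subunits per kilobase of the longest transcript, in percent, for each of the 6 libraries. With this length, the Nfkb1 segment is the largest in the 3 WT libraries and the Nfkb2 segment in the 3 SIRPα KO libraries, while with the median transcript length Rela has the largest share in all 6.

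The pattern of Rel over the 6 libraries was also compared with those of 9045 other genes, as the root mean square distance between centred log2 values. The nearest genes were Nup205 (0.0695), Ahctf1 (0.103) and Ide (0.124). Each was low in WT replicate 3, as Rel was. Nup205, which encodes a nuclear pore protein, was at 34.8 CPM in that library, at 75.6 and 93.2 CPM in WT replicates 1 and 2 and at 177 to 221 CPM in SIRPα KO. Among the 10 genes, Chuk was the nearest to Rel, at a distance of 0.196.

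Beyond the 10 genes, 45 other genes of the pathway were listed by their role. Of these, 6 passed the test, 5 higher and 1 lower in SIRPα KO. This is 13.3% of the list against 11.7% of all genes tested. The log2 fold change was above 0 for 30 of the 45 and for 48.4% of all genes, and the median of the list was 0.24. With upper quartile scaling 25 were above 0, with a median of 0.15 against -0.13 for all genes. With the correction for length and GC content 27 were above 0, with a median of 0.165 against -0.023 for all genes. The list of 3 nuclear IκB proteins held Nfkbiz, which encodes IκBζ, a co-activator of secondary response genes such as Il6. Nfkbiz was at 29.96, 36.6 and 27.6 CPM in WT and at 56.8, 55.3 and 65.7 CPM in SIRPα KO. It rose by 0.92 on the log2 scale (standard error 0.17, adjusted p = 0.0190 from edgeR), and no library of either group reached the other. Of 5 genes for the IKK regulatory subunit and IKK-related kinases, Tbk1, a kinase of the interferon response, rose by 0.61 (110 ± 19.1 to 168 ± 13.9 CPM, adjusted p = 0.0430 from edgeR).

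In the list of 4 genes of the IκB ubiquitin ligase, which marks phosphorylated IκB for degradation, 2 rose. Those were Cul1, its scaffold, with a log2 fold change of 0.94 (111 ± 31.4 to 212 ± 19.1 CPM, adjusted p = 0.0327 from edgeR), and Fbxw11, a substrate receptor, with 0.78 (74.8 ± 20.9 to 128 ± 3.94 CPM, adjusted p = 0.0497 from edgeR). Skp1a, a core subunit of the same ligase, was at -0.36 with every SIRPα KO library below the WT libraries (adjusted p = 0.0876 from edgeR, and 0.0442 with upper quartile scaling). Of 10 genes for linear ubiquitin assembly and deubiquitinases, Cyld rose and Sharpin fell. Cyld, which removes ubiquitin chains and restrains the pathway, rose by 0.95 (71.5 ± 21.2 to 138 ± 10.2 CPM, adjusted p = 0.0353 from edgeR). Sharpin, a part of the ligase that builds linear chains, fell by 0.50 (58.4 ± 4.05 to 41.2 ± 1.89 CPM, adjusted p = 0.0497 from edgeR). With the correction for length and GC content, 5 pathway genes were called (11.1%, against 8.88% of all genes), each higher in SIRPα KO. Of the genes above, Nfkbiz, Fbxw11 and Cul1 were among them, while Tbk1, Cyld and Sharpin were not, and Bcl3 and Tnip1 were the other 2, named after their values were seen.

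In 3 lists no gene passed the test in edgeR. Genes named there other than the one with the smallest p were chosen after their values were seen. Over all genes tested, 32.0% had an unadjusted p under 0.05, and DESeq2 called 26.9% of those with an adjusted p. Of 12 upstream kinases and adaptors, 2 had an unadjusted p under 0.05, Map3k7 and Tab3. DESeq2 called both, or 16.7% of the list. The smallest p was that of Tab3, an adaptor of the kinase that Map3k7 encodes, with a log2 fold change of 0.86 (adjusted p = 0.0773 from edgeR). The value of Tab3 was 0.29 with the correction for length and GC content, and 0.59 without SIRPα KO replicate 2. Of 5 genes of NIK and its degradation complex, 4 had an unadjusted p under 0.05, of which Traf3, Birc2 and Birc3 were above 0 and Map3k14, the gene of NIK, was at -0.50 on the log2 scale. DESeq2 called Traf3 and Birc3, or 40.0% of the list. Birc3, a ubiquitin ligase of that complex, came nearest with 0.56 (adjusted p = 0.0507 from edgeR). Of 6 other inhibitors of NF-κB, 2 had an unadjusted p under 0.05, Commd1 and Pdlim2. DESeq2 called both, or 33.3% of the list. The smallest p there was that of Commd1, with -0.70 (adjusted p = 0.0691 from edgeR).

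Of 42 genes listed as known targets of NF-κB, 37 were tested and 10 passed, 4 higher and 6 lower in SIRPα KO. This is 27.0% of those tested, against 11.7% of all genes. Cxcl1, Ccl17, Ccnd1 and Nos2 did not pass the filter on low counts, and Plau was not analysed here. The median log2 fold change was -0.051, and 17 of the 37 were above 0 (15 with upper quartile scaling). With the correction for length and GC content, 22 of the 37 were above 0 and the median was 0.046. That setting called 12, with 6 in each direction (32.4%, against 8.88% of all genes). Among cytokines and chemokines, Il6 was at 8.74, 9.67 and 12.2 CPM in WT and at 35.7, 35.7 and 35.5 CPM in SIRPα KO. Il6 rose by 1.81 on the log2 scale (standard error 0.19, adjusted p = 0.00586 from edgeR). Ltb, which encodes lymphotoxin β, moved the other way, from 72.9, 66.0 and 70.2 CPM in WT to 18.7, 23.1 and 26.6 CPM in SIRPα KO. Ltb fell by 1.61 (standard error 0.17, adjusted p = 0.00586 from edgeR). For both genes the groups lay far apart. Its partner Lta fell by 1.25 (354 ± 74.1 to 149 ± 6.56 CPM, adjusted p = 0.0101 from edgeR). Csf2, which encodes GM-CSF, fell by 0.78 (1267 ± 322 to 740 ± 17.6 CPM, adjusted p = 0.0297 from edgeR). Ccl5, a chemokine also abundant in NK and T cells, fell by 1.91 (10.1 ± 4.03 to 2.68 ± 0.319 CPM, adjusted p = 0.0203 from edgeR). With the correction for length and GC content, Il6 was at 1.66, Ltb at -1.05, Lta at -0.79, Csf2 at -0.41 and Ccl5 at -1.26. Each was smaller than without it, and each still passed the threshold.

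Among surface molecules, Il2ra, the high-affinity IL-2 receptor chain, rose by 0.91 (1841 ± 377 to 3451 ± 30.2 CPM, adjusted p = 0.0154 from edgeR). Tnfrsf1b, which encodes a TNF receptor, rose by 0.77 (216 ± 50.3 to 369 ± 35.3 CPM, adjusted p = 0.0361 from edgeR). Cd83 fell by 1.73 (15.2 ± 2.996 to 4.59 ± 1.116 CPM, adjusted p = 0.0154 from edgeR), and is also carried by activated B cells. Ptgs2, the inducible cyclooxygenase, rose by 1.5 (4.54 ± 0.445 to 12.8 ± 1.89 CPM, adjusted p = 0.0155 from edgeR). The corrected log2 fold changes were 0.55 for Il2ra, 0.70 for Tnfrsf1b, -1.66 for Cd83 and 1.07 for Ptgs2, each still past the threshold. The survival gene Bcl2a1d fell by 0.75 (adjusted p = 0.0373 from edgeR), and by 0.43 with the correction for length and GC content, where it did not pass (adjusted p = 0.115 from edgeR). Its adjusted p from edgeR was 0.0596 without WT replicate 1. It has a near-identical copy, Bcl2a1b, with a log2 fold change of -0.86 (adjusted p = 0.0811 from edgeR), so how reads were split between them is uncertain. B cell and NK cell markers and the T cell marker Cd3g were also lower in SIRPα KO. The part of such cells in the values of Ltb, Lta, Ccl5 and Cd83 was not tested.

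**Figure D5:**
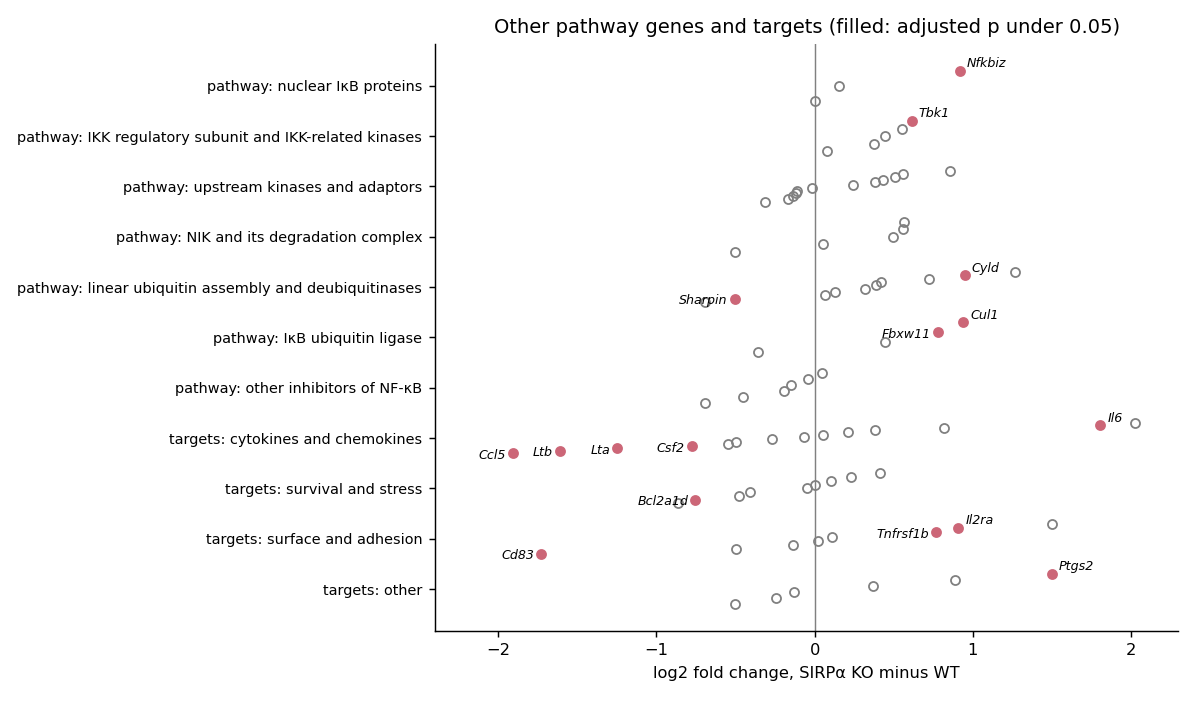
Log2 fold change of SIRPα KO against WT for the other pathway genes and the target genes, by list, with filled points for an adjusted p under 0.05 from edgeR and open points for the rest. Called pathway genes are to the right of 0 except Sharpin, and called targets lie on both sides, from Ccl5 at -1.91 to Il6 at 1.81.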

How the data were processed

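Gene expression was measured by bulk RNAseq in lung ILC2s, with 3 libraries for each genotype. The authors aligned reads to mm10 and deposited expected counts (estimated counts per gene, GENCODE M21). The submitters' processing notes name Partek 10.0 and STAR 2.7.8. Of the values in a library, 57.2% to 61.2% were whole, and all were rounded here. The smallest total of a gene in the table is 10.

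Genes were kept by filterByExpr (10 reads in a library of median size, 15 in total), scaled by TMM and tested on genotype with edgeR 4.0.16 (quasi-likelihood, limma 3.58.1, R 4.3.3), with Benjamini-Hochberg adjustment over 13623 genes and a threshold of 0.05. DESeq2 1.42.0, which gave 11944 genes an adjusted p, was an alternative. The others were other scalings and filters, a replicate block, summed libraries of one code, leaving out each library, and an offset from splines (5 degrees of freedom) on transcript length and GC content fitted over 9024 genes. Length was known for 99% of tested genes, with 17400 symbols matched to GENCODE M21 directly, 189 through synonyms and 242 not matched. Samples were grouped by genotype label. The procedures were tested on simulated data. Of the gene columns, 17683 are not listed singly in the record of columns.

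The members and lists were chosen with earlier results of these data known. Genes named beyond the 10 are those called in a list, the gene with the smallest p in a pathway list without a call, and the 3 genes nearest to Rel. Protein sequences were not used here. Figures were drawn with matplotlib 3.10.9.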

Additional observations from a re-analysis of the deposited data

How the results depend on the processing

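Of the 140 log2 fold changes computed for the 10 genes under 14 alternatives, 118 kept their direction and their side of the threshold, 9 were no longer past it, 8 were newly past it and 5 changed sign. The 5 were Relb at -0.073 with upper quartile scaling, -0.034 with genes under a mean log2 CPM of 3 left out and -0.079 without WT replicate 3, Nfkb2 at -0.025 with upper quartile scaling, and Nfkbib at 0.13 with the correction for length and GC content. Without 1 library, Relb ran from -0.079 to 0.090. For the other named genes, 173 of 265 values kept both, 84 were no longer past the threshold and 8 were newly past it.

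The number of the 10 genes called by edgeR ran from 0 to 4 without 1 library. Without any 1 SIRPα KO library it was 0, where 16, 17 and 17 of all genes were called. At an unadjusted p under 0.05 there were 3 of the 10 each time, as with all 6 libraries. With all 6 libraries that cut was met by 32.0% of all genes, and without a library that share was not counted. Without WT replicate 1 the number called was 1 (Nfkb1), where 7.89% of all genes were called. Without WT replicate 3 it was 4, where 18.4% of all genes were called. Without 1 library, calls ran from 0 to 15 for pathway genes and for targets, and from 0.112% to 18.4% of all genes. With libraries of one code summed, 0 genes were called in each list and 10 of all genes. At an unadjusted p under 0.05 there were 3, 17 and 13, and the share of all genes was not counted there either. That setting leaves 2 against 2 samples. DESeq2 called 17 of 45 pathway genes (37.8%) and 17 of 41 targets (41.5%), against 26.9% of the 11944 genes with an adjusted p. The 41 include targets without an adjusted p from DESeq2, such as Ccl22 and Vcam1, so the target share is not on the same base. With no filter on low counts, 3 pathway genes were called (Nfkbiz, Cyld and Cul1), or 6.67% against 6.46% of all genes. With genes under a mean log2 CPM of 3 left out there were 12, or 27.9% against 22.5% of all genes. Where fewer samples are not the construction, the cause was not tested. The replicate block called 3 of the 10 genes (Chuk added), 3 pathway genes (6.67%) and 9 targets (24.3%), against 8.21% of all genes. Those pathway genes were Nfkbiz, Cyld and Cul1. The shared numbers did not pair the samples, with same-number correlations of -0.14, 0.18 and 0.031.

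The lowest count behind a called gene of the 10 was 55 reads, for Rel in WT replicate 3. Counts per gene show transcript levels and neither splicing, protein nor phosphorylation.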
